A study of Mus musculus with 6 samples.

Results

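MHC class I molecules show peptides from inside the cell to CD8 T cells, and 10 genes that build this display are described here, out of 23284 genes in the deposited tables. They were chosen by name and function, with earlier results of these data known. They are B2m and the heavy chain genes H2-K1 and H2-D1, the peptide loading genes Tap1, Tap2 and Tapbp, the immunoproteasome subunit genes Psmb8, Psmb9 and Psmb10, and the transactivator gene Nlrc5. RNA was sequenced from C1498-EGFP cells, a mouse acute myeloid leukemia (AML) line carrying green fluorescent protein, which had been expanded from a single cell and injected into syngeneic female C57BL/6J mice of young adult age. On day 21 after injection, cells positive for green fluorescence and CD49b were sorted from the bone marrow of 3 mice given cytarabine and 3 control mice, 1 library per mouse. The sample records name PBS or no treatment for the controls, and the cytarabine dose is not stated for these mice in particular. All 6 libraries therefore derive from 1 clone, and the groups differ in cytarabine alone as far as the labels say.

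A class I molecule is a heavy chain bound to beta-2 microglobulin, and in C57BL/6 mice the classical heavy chains are K and D. The proteasome cuts proteins into peptides, the TAP transporter carries them into the endoplasmic reticulum, and tapasin holds the empty molecule at the transporter until a peptide binds. Interferons raise the transcription of these genes through IRF1 and NLRC5, and the induced subunits LMP7, LMP2 and MECL-1 replace their constitutive partners in newly built proteasomes. On leukemic blasts, the same display makes the cell visible to CD8 T cells and restrains natural killer (NK) cells.

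All members except B2m, Psmb10 and Nlrc5 lie in the MHC on chromosome 17. On GRCm38, the build called mm10, H2-K1 is at chr17:33996017-34000347, H2-D1 at chr17:35262730-35267499, Tapbp at chr17:33915899-33929292 and Tap2 at chr17:34203527-34216321. Psmb9 at chr17:34181987-34187764 and Tap1 at chr17:34187553-34197225 overlap at their starts on opposite strands, and Psmb8 follows at chr17:34197721-34201454. B2m is at chr2:122147686-122153083, Psmb10 at chr8:105935735-105938444 and Nlrc5 at chr8:94434356-94527272. For 8 of the 10 genes, another annotated gene overlaps the same stretch, and the strand setting used for quantification is not given in the sources used here. All 75-base stretches in their transcripts, the length of 1 read, were compared with transcripts of other genes. Only the same orientation was compared, so sharing between opposite strands was not counted. Of these stretches, 3.10% in H2-K1, 5.40% in H2-D1 and 1.10% in Tapbp also occur in another gene, and 0 in the other 7. The values of H2-K1 and H2-D1 may thus include reads from related heavy chains.

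The promoters are shown because class I genes are known for control elements of interferon and NF-kB, which not every window here holds, and because H2-K1 and H2-D1 can be compared letter by letter. RefSeq windows on GRCm38.p6, from 250 bases before to 50 after the start of transcription, were matched for 8 of the 10 members, with Tap2 and Nlrc5 unmatched. Each is written 5′ to 3′ on the strand of the gene, and capitals mark matches on either strand to 5 motifs. These are GAANNGAAA (a pair of interferon regulatory factor core sites), TTCNNNGAA (the GAS element of interferon gamma responses), the kappaB site (GGG, any 2 bases, TT, any base and CC), TGACG (the core of the cyclic AMP response element) and CCAAT (the Y box). The windows lie at chr17:34000298-34000597 on the minus strand for H2-K1, and on the plus strand at chr17:35262844-35263143 for H2-D1, chr2:122147437-122147736 for B2m, chr17:34187306-34187605 for Tap1 and chr17:34197945-34198244 for Psmb8.
H2-K1: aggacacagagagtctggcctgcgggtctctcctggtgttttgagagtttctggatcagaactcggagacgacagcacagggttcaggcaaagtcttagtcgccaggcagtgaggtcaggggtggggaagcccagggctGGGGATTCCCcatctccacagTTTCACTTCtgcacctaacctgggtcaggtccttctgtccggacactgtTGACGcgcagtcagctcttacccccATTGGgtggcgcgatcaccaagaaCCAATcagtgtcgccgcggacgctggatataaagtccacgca
H2-D1: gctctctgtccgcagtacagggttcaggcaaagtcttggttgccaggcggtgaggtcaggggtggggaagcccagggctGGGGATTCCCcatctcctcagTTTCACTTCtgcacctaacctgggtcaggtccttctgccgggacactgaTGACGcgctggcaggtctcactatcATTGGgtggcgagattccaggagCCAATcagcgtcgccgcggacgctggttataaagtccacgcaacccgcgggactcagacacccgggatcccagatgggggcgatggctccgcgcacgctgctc
B2m: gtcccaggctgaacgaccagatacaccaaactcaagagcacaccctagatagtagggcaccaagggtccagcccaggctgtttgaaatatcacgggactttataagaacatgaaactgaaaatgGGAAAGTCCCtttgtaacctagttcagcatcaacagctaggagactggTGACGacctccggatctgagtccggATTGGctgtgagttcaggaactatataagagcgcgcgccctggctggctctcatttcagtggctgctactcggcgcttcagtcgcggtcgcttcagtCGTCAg
Tap1: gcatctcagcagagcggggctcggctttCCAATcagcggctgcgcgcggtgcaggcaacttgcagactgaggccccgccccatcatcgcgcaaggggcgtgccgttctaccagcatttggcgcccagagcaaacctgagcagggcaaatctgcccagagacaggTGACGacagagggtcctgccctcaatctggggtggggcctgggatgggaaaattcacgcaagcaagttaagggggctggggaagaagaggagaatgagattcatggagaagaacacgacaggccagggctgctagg
Psmb8: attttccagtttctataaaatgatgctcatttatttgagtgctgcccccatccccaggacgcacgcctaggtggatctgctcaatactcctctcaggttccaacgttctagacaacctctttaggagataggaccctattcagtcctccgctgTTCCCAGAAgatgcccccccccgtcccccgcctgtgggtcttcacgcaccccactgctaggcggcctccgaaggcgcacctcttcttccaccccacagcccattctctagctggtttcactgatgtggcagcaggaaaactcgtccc

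H2-K1 and H2-D1 carried the same letters in the same order. In both, GGGGATTCCC matched the kappaB motif, TTTCACTTC the interferon regulatory factor pair, TGACG the cyclic AMP element core and ATTGG the Y box, with 21, 49 and 25 bases between the first bases of consecutive matches. A second Y box, CCAAT, followed the first by 24 bases in H2-K1 and 23 bases in H2-D1, so that spacing differed. B2m had the kappaB match GGAAAGTCCC, 2 core matches of the cyclic AMP element and a Y box, and no match to the interferon regulatory factor pair in this window. Psmb8 held the GAS match TTCCCAGAA and no other motif. Tap1 and Psmb9 are read in opposite directions from a shared stretch of 275 bases, chr17:34187306-34187580, in which a cyclic AMP element core and a Y box were found. Tapbp had 2 Y box matches, and Psmb10 had none of the 5 motifs. Among 32851 promoter windows of this length, 7.52% held the interferon regulatory factor pair, 8.3% the GAS motif, 4.79% the kappaB motif, 20.8% the cyclic AMP element core and 37.4% the Y box. A match is a description of letters and not evidence that a factor is bound.

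The values are FPKM, which are read numbers divided by transcript length and by library total and can be set side by side between genes. Totals inferred from the steps between low values were between 11490000 and 18880000 reads per library, and 3 reads on a transcript of 2000 bases would correspond to 0.0794 to 0.131 FPKM. These floors cover counting error only, and all members lay far above them. The leukemia genes Ptprc (284 to 386 FPKM), Cd3g (449 to 652 FPKM) and Itga2, which encodes CD49b (7.79 to 13.3 FPKM), were present in all 6 libraries. Transcripts of other tissues divided the libraries across the groups. Summed FPKM of the colon epithelium genes was 4173, 4485 and 2078 in cytarabine 2, cytarabine 3 and control 1, and 313, 27.2 and 25.3 in cytarabine 1, control 2 and control 3. The heart muscle genes summed to 7.46, 22.6 and 685 FPKM in cytarabine 1 to 3 and 2518, 541 and 52.5 FPKM in control 1 to 3. The differences of the members and the list medians are therefore also given within the libraries with little colon RNA (cytarabine 1 against control 2 and 3) and with much (cytarabine 2 and 3 against control 1). No test was run on a single side, and a fit with the division as a term is given after the members.

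With cytarabine, 8 of the 10 genes had a log2 fold change above 0, beside 49.7% of all genes tested, and in 3 of them, B2m, Psmb8 and Psmb9, every treated mouse lay above every control mouse. None passed an adjusted p of 0.05 in limma, where 0% of the 11703 genes tested did. At an unadjusted p under 0.05, 3 members were higher and 0 lower, beside 7.6% of all tested genes higher and 9.81% lower. Groups that did not overlap, were found for 10.9% of all genes with cytarabine higher and 12.9% with cytarabine lower. The median log2 fold change of the members was 0.22, against -0.0015 over all genes tested, and within the sides it was 0.43 with little colon RNA and 0.18 with much. Cytarabine 1 had the highest value of the 6 libraries for all 10 members. As the only treated library with little colon RNA, it alone sets the sign of all 10 differences on that side. The members' count turned on single libraries. Without cytarabine 1, 0 members had an unadjusted p under 0.05, beside 34.8% of all genes in either direction, and the median was 0.03. Without control 1 the count was also 0, beside 18.3% of all genes. It was 1 without cytarabine 2 (11.1% of all genes) and 4 without cytarabine 3 (10.9%). With control 2 (10.7%) or control 3 (9.94%) left out it was 2.

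**Figure D1:**
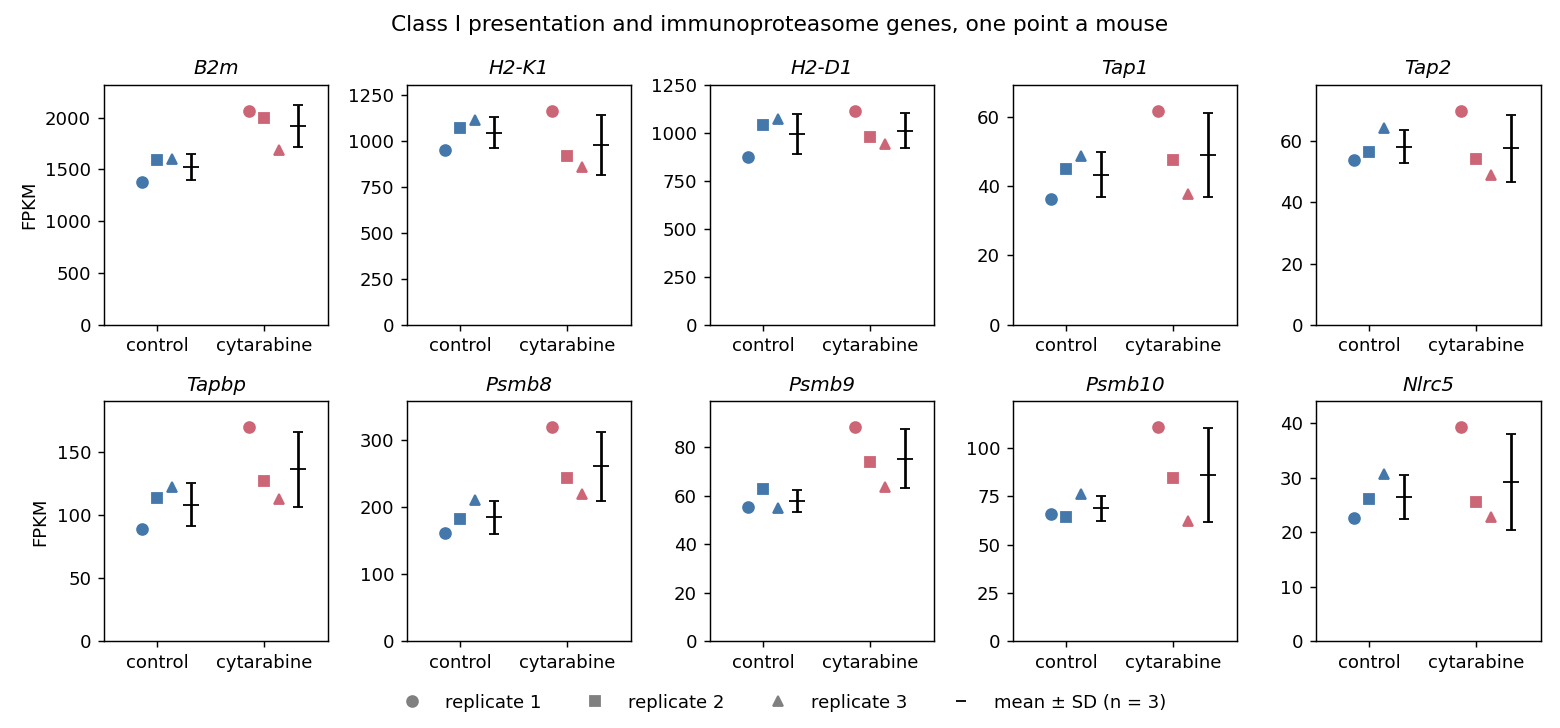
FPKM of each of the 10 genes on the y axis (linear, from 0, scaled per gene) in 3 control mice (blue) and 3 cytarabine-treated mice (red), with the marker shape giving the replicate number and the black bar the mean ± SD (n = 3). The groups do not overlap for B2m, Psmb8 and Psmb9, and cytarabine 1, the red circle, is the highest point in all 10 panels.

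B2m, the light chain shared by all class I molecules, was the most abundant member and ranked 62 of all genes by mean FPKM. It measured 2067, 1997 and 1684 FPKM in cytarabine 1, 2 and 3, and 1378, 1593 and 1597 FPKM in control 1, 2 and 3. The lowest treated library thus stood above the highest control. The means were 1916 ± 204 FPKM (SD, n = 3 mice) and 1523 ± 125 FPKM (SD, n = 3), a log2 fold change of 0.33 ± 0.11 (SE), or 1.26-fold on the log2(FPKM + 1) scale, with adjusted p = 0.222 from limma and unadjusted p = 0.0217. The difference was 0.37 with little colon RNA and 0.41 with much.

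H2-K1 measured 1163, 914 and 856 FPKM with cytarabine and 948, 1068 and 1114 FPKM in controls, in the order of replicates. The treated libraries included both the highest and the lowest value, so the controls lay inside their range. The means were 977 ± 163 and 1044 ± 85.8 FPKM (SD, n = 3 each), with a log2 fold change of -0.10 ± 0.13 (SE), a 95% interval from -0.43 to 0.22 and adjusted p = 0.665 from limma. The sign turned between the sides, at 0.09 with little colon RNA and -0.10 with much. H2-D1 measured 1117, 977 and 944 FPKM with cytarabine and 875, 1040 and 1071 FPKM in controls, again overlapping. Its log2 fold change was 0.03 ± 0.11 (SE), with a 95% interval from -0.24 to 0.29 and adjusted p = 0.898 from limma, and it was 0.08 with little colon RNA and 0.13 with much. The libraries held nearly equal amounts of both heavy chain transcripts. H2-K1 made up 51.0%, 48.3% and 47.5% of their summed FPKM with cytarabine and 52.0%, 50.7% and 51.0% in controls. The difference was -2.27 percentage points (exact permutation p = 0.3, two-sided, where 3 mice against 3 cannot go below 0.1). It was 0.169 points with little colon RNA and -4.07 points with much.

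Among the loading genes, Tapbp, which encodes tapasin, had the largest difference, and its groups overlapped. It measured 170, 127 and 113 FPKM with cytarabine and 89.0, 114 and 122 FPKM in controls, for means of 136 ± 29.7 and 108 ± 17.3 FPKM (SD, n = 3 each). The log2 fold change was 0.32 ± 0.19 (SE; adjusted p = 0.391 from limma), and it was 0.52 with little colon RNA and 0.42 with much. It was 0.16 without cytarabine 1 and 0.11 with the heart score as a covariate. Tap1 and Tap2 encode the chains of the peptide transporter. Tap1 measured 61.8, 47.5 and 37.7 FPKM with cytarabine and 36.2, 45.1 and 48.6 FPKM in controls. Its log2 fold change was 0.16 ± 0.20 (SE; adjusted p = 0.665 from limma). Tap2 measured 70.0, 54.2 and 48.9 FPKM with cytarabine and 54.0, 56.4 and 64.2 FPKM in controls. Its log2 fold change was -0.02 ± 0.15 (SE; adjusted p = 0.931 from limma). For both, cytarabine 1 was the highest library and the other treated libraries lay among the controls or below them. With little colon RNA the difference was 0.39 for Tap1 and 0.21 for Tap2, and with much it was 0.22 and -0.07. Without cytarabine 1, the log2 fold change was -0.02 for Tap1 and -0.17 for Tap2.

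The immunoproteasome genes had higher means with cytarabine for all 3 subunits. Psmb8 encodes LMP7, which takes the place of the chymotrypsin-like subunit encoded by Psmb5. It measured 319, 243 and 220 FPKM with cytarabine and 162, 182 and 211 FPKM in controls, so the groups did not overlap. The means were 261 ± 51.9 and 185 ± 24.8 FPKM (SD, n = 3 each), a log2 fold change of 0.48 ± 0.17 (SE), or 1.40-fold, with adjusted p = 0.236 from limma and unadjusted p = 0.0278. Within the sides the difference was 0.70 with little colon RNA and 0.51 with much.

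Psmb9 encodes LMP2, the substitute for the Psmb6 subunit. It measured 88.2, 74.0 and 63.7 FPKM with cytarabine and 55.2, 62.9 and 54.9 FPKM in controls. The groups were separate, but cytarabine 3 and control 2 lay close together. The means were 75.3 ± 12.3 and 57.7 ± 4.53 FPKM (SD, n = 3 each), a log2 fold change of 0.37 ± 0.13 (SE), or 1.29-fold, with adjusted p = 0.245 from limma and unadjusted p = 0.0313. The difference was 0.58 with little colon RNA and 0.31 with much. Psmb10 encodes MECL-1, the substitute for the Psmb7 subunit, and measured 111, 84.5 and 62.4 FPKM with cytarabine and 65.6, 64.2 and 76.1 FPKM in controls. Here cytarabine 3 was the lowest of the 6 libraries, and the log2 fold change was 0.28 ± 0.21 (SE; adjusted p = 0.467 from limma). It was 0.66 with little colon RNA and 0.14 with much, 0.08 without cytarabine 1 and 0.05 with the heart score as a covariate.

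The balance of transcripts in a pair can be read within a library, as the share of the induced subunit in the summed FPKM. This share does not depend on the scaling between libraries. It describes RNA, and the exchange of subunits in the proteasome was not measured. For Psmb8 with Psmb5 the share was 59.4%, 57.6% and 54.7% with cytarabine and 47.2%, 47.0% and 50.5% in controls. Every treated library lay above every control, and the means were 57.2% ± 2.38 and 48.2% ± 1.95 (SD, n = 3 each). The difference of 8.97 percentage points had an exact permutation p = 0.1, two-sided, which is the smallest that 3 mice against 3 allow, and the p-values of the 4 shares computed become 0.3 after Benjamini-Hochberg adjustment. It was 10.6 points with little colon RNA and 8.92 points with much, and between 7.88 and 10.2 points when any 1 library was left out.

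For Psmb9 with Psmb6 the share was 36.5%, 34.6% and 30.5% with cytarabine and 28.6%, 30.7% and 27.9% in controls, overlapping between cytarabine 3 and control 2 (difference 4.78 points, exact permutation p = 0.2, and 7.17 and 3.93 points with little and much colon RNA). For Psmb10 with Psmb7 it was 19.7%, 19.4% and 14.8% with cytarabine and 14.8%, 13.4% and 16.1% in controls (difference 3.18 points, exact permutation p = 0.3, and 4.90 and 2.28 points with little and much colon RNA). The constitutive partners themselves were at similar levels in both groups. Psmb5 measured 219, 179 and 183 FPKM with cytarabine and 181, 205 and 207 FPKM in controls, and its log2 fold change was -0.04. Psmb6 measured 154, 140 and 145 FPKM with cytarabine and 138, 142 and 142 FPKM in controls, with a log2 fold change of 0.06. Psmb7 measured 452, 351 and 358 FPKM with cytarabine and 377, 414 and 396 FPKM in controls, with a log2 fold change of -0.04. In the fits with the colon or the neutrophil score as a covariate, the values of Psmb5 and Psmb7 were above 0.

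**Figure D2:**
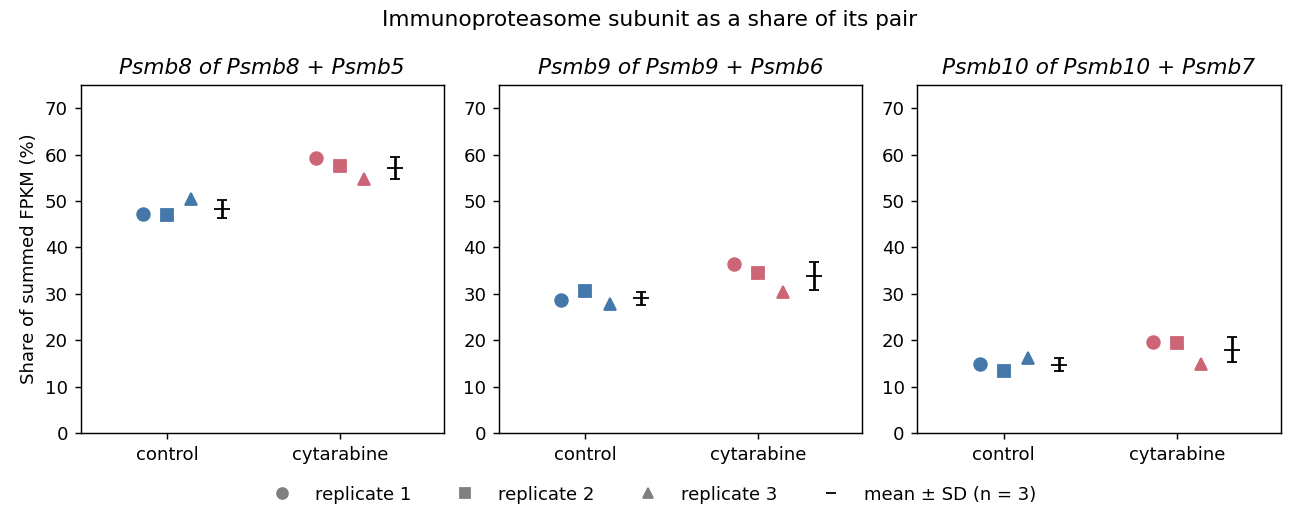
Share of the immunoproteasome subunit in the summed FPKM of the induced and the constitutive subunit (y axis, percent, from 0), for Psmb8 with Psmb5, Psmb9 with Psmb6 and Psmb10 with Psmb7, in 3 control mice (blue) and 3 cytarabine-treated mice (red), with the mean ± SD (n = 3) in black. Only the Psmb8 panel has groups that do not overlap, with treated libraries between 54.7% and 59.4% and controls between 47.0% and 50.5%.

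Nlrc5, the transactivator that binds the promoters of class I genes, was the least abundant member. It measured 39.3, 25.6 and 22.8 FPKM with cytarabine and 22.6, 26.1 and 30.6 FPKM in controls. Only cytarabine 1 stood above the controls. The means were 29.3 ± 8.82 and 26.4 ± 4.03 FPKM (SD, n = 3 each), a log2 fold change of 0.11 ± 0.22 (SE) with a 95% interval from -0.43 to 0.66 and adjusted p = 0.784 from limma. It was 0.46 with little colon RNA and 0.09 with much, and -0.11 without cytarabine 1.

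**Figure D3:**
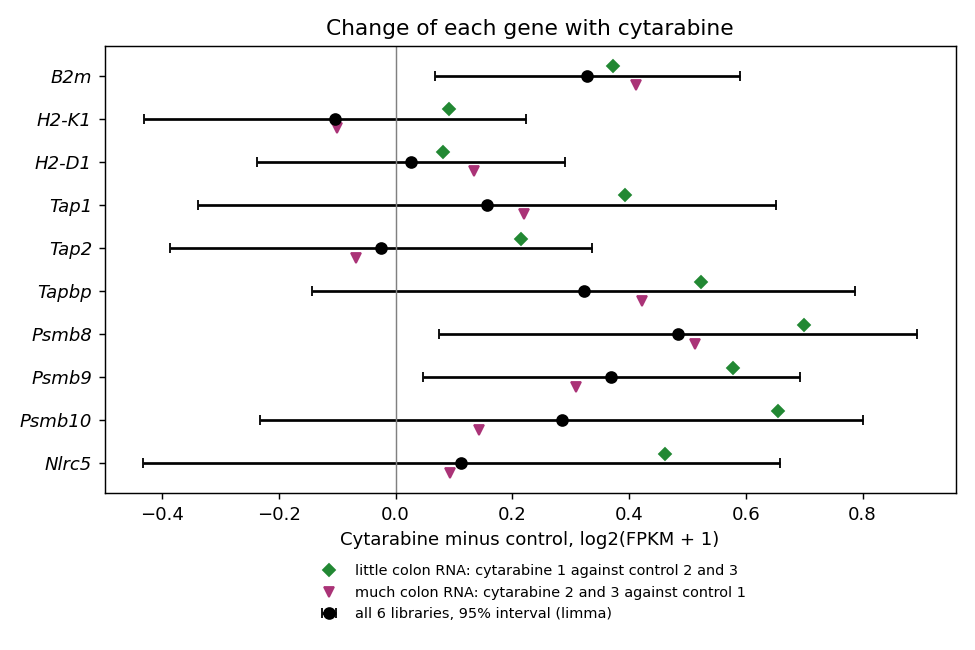
Cytarabine minus control on the log2(FPKM + 1) scale (x axis) for each of the 10 genes (y axis), with black points and bars for the limma estimate over all 6 libraries and its 95% interval, green diamonds for the libraries with little colon RNA and purple triangles for those with much. The intervals of B2m, Psmb8 and Psmb9 lie above 0, and the other 7 include 0. All 10 diamonds are above 0 because their only treated library, cytarabine 1, was the highest for all 10 genes.

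By mean over the 6 libraries, the order of levels was B2m (1719 FPKM), H2-K1 (1010 FPKM), H2-D1 (1004 FPKM), Psmb8 (223 FPKM), Tapbp (122 FPKM), Psmb10 (77.2 FPKM), Psmb9 (66.5 FPKM), Tap2 (58.0 FPKM), Tap1 (46.2 FPKM) and Nlrc5 (27.8 FPKM). H2-K1 was above H2-D1 in 4 of 6 libraries, so these neighbours were not separated. Psmb10 was above Psmb9, and Psmb9 above Tap2, in 5 of 6 libraries each. Every other neighbouring pair kept its order in 6 of 6. Among the libraries, cytarabine 1 had the largest sum over the members, 5206 FPKM, and control 1 the smallest, 3686 FPKM. Control 1 was the lowest library for 6 members, cytarabine 3 for 3 and control 3 for 1.

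The sums of the neutrophil and NK cell genes did not overlap between the groups, and the other cell type lists had overlapping sums. Summed FPKM of the 8 neutrophil genes was 1433, 199 and 189 with cytarabine and 1438, 2043 and 2004 in controls, so cytarabine 1 lay close to control 1. Of the 8 genes, 6 did not overlap between the groups, all lower with cytarabine, beside 12.9% of all tested genes. The 6 NK cell genes summed to 13.5, 8.56 and 6.86 FPKM with cytarabine and 3.33, 5.47 and 3.24 FPKM in controls, most of it Klrb1c and Gzma, while the defining gene Ncr1 was at 0.384 FPKM or less in all 6. The T cell genes, of which Cd3e and Cd3g were left out because they were abundant in every library, summed to at most 2.47 FPKM in any library, the dendritic cell genes to at most 3.11 FPKM and the B cell genes to at most 15.6 FPKM. The macrophage genes ranged from 17.2 to 64.5 FPKM with cytarabine and from 14.9 to 161 FPKM in controls, and the erythroid genes reached 311 FPKM in cytarabine 1, against at most 72.8 FPKM in the other libraries. In bulk RNA, fewer cells of a type and less RNA per cell cannot be told apart.

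With a marker score entered as a covariate in limma, the median log2 fold change of the members was 0.48 for the colon score and 0.77 for the neutrophil score. It was -0.014 for the heart score, with 5 of the 10 above 0. The neutrophil score was 3.55 to 5.76 in treated libraries and 6.23 to 6.82 in controls. It divided the groups, so its fit cannot cleanly separate cytarabine from neutrophil RNA. In the fits with the colon, neutrophil and heart scores, 7, 9 and 2 members were higher at an unadjusted p under 0.05, and 0 lower. Over all 11703 genes tested, 964, 895 and 1773 were higher at such a p, and 15.4%, 12.6% and 30.2% had such a p in either direction. When the division by colon RNA was entered as a 2-level term, a choice made after the data were seen, 5 members had an unadjusted p under 0.05, beside 25.3% of all genes. In that fit Psmb8 (log2 fold change 0.61, adjusted p = 0.0374 from limma) and Tapbp (0.47, adjusted p = 0.0394) passed, beside 3.24% of all genes. Over all settings that kept the 6 libraries, the adjusted p ranged up to 0.576 for Psmb8 and 0.63 for Tapbp.

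Unlike H2-K1, most of the tested nonclassical class I genes had a higher mean with cytarabine. Of 24 such genes listed, 18 were tested, and 14 had a higher and 4 a lower mean with cytarabine. At an unadjusted p under 0.05, 4 were higher and 0 lower (7.6% and 9.81% of all genes). The median log2 fold change was 0.26 and ranged from 0.19 to 0.40 over all settings. It was 0.15 with little colon RNA and 0.32 with much. H2-T23 encodes Qa-1, the ligand of the inhibitory receptor CD94-NKG2A on NK cells. It measured 156, 137 and 123 FPKM with cytarabine and 87.4, 110 and 116 FPKM in controls, without overlap (log2 fold change 0.41 ± 0.14 SE, adjusted p = 0.235 from limma). H2-T10, which encodes a ligand of gamma-delta T cells, measured 11.8, 13.7 and 10.3 FPKM with cytarabine and 6.53, 7.34 and 7.31 FPKM in controls (0.68 ± 0.12 SE, adjusted p = 0.136 from limma). H2-Q4 (0.26, adjusted p = 0.195) and Mr1, which presents vitamin B metabolites (0.47, adjusted p = 0.193), were the others, while H2-M3, which presents formylated peptides, had -0.12. Related heavy chains share sequence, so single values within this group are uncertain.

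In the remaining parts of the pathway, most loading, trimming, activator and assembly genes had lower means with cytarabine. Most constitutive 20S genes had higher means. Of the 14 peptide trimming and loading genes tested, 3 had a higher and 11 a lower mean. At an unadjusted p under 0.05, 0 were higher and 4 lower (7.6% and 9.81% of all genes). Without overlap, 0 were higher and 6 lower (10.9% and 12.9% of all genes). The median was -0.15, or 0.04 with the neutrophil score as a covariate. The lower means lay mainly on one side, with a median of 0.014 and 8 of 14 above 0 with little colon RNA, and -0.19 and 2 of 14 with much. Calnexin, Canx, a chaperone of newly made heavy chains, had a log2 fold change of -0.31 ± 0.08 (SE; adjusted p = 0.178 from limma). The peptidase genes Ide and Npepps had -0.41 and -0.32, and the chaperone gene Hspa5 had -0.19 (adjusted p = 0.192, 0.237 and 0.223). Erap1, the peptide trimming enzyme of the endoplasmic reticulum, had 0.05, and Tapbpl, a relative of tapasin, had 0.25 (adjusted p = 0.858 and 0.439). Among 9 activator and assembly genes, 3 had a higher and 6 a lower mean. At an unadjusted p under 0.05, 0 were higher and 3 lower (7.6% and 9.81% of all genes). Without overlap, 0 were higher and 3 lower (10.9% and 12.9% of all genes). Their median was -0.19, or 0.14 with the neutrophil score, and it was -0.02 with little colon RNA and -0.24 with much. The PA28 activator genes Psme1 and Psme2, which interferon gamma induces, had 0.17 and 0.18, and Pomp, needed to assemble the proteasome, had 0.07. The assembly chaperone genes Psmg1, Psmg2, Psmg3 and Psmg4 had -0.22, -0.32, -0.33 and -0.39. Of the 14 constitutive 20S genes, 10 had a higher and 4 a lower mean, with a median of 0.05 (0.08 with little colon RNA and 0.05 with much). Psma1 alone was below an unadjusted p of 0.05 (log2 fold change 0.21, adjusted p = 0.223), beside 17.4% of all genes in either direction.

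Genes of interferon signalling upstream of the members included single differences larger than any of the members. Of 23 tested genes of interferon gamma signalling and class I transcription, 14 had a higher and 9 a lower mean. At an unadjusted p under 0.05, 4 were higher and 1 lower (7.6% and 9.81% of all genes). The median was 0.13 (0.15 with little colon RNA and 0.22 with much). Ifng itself was listed at 0 in all 6 libraries. Irf1, the transcription factor that induces Psmb9 and Tap1, measured 99.1, 82.1 and 64.5 FPKM with cytarabine and 51.4, 49.5 and 49.2 FPKM in controls, without overlap (log2 fold change 0.68 ± 0.15 SE, adjusted p = 0.161 from limma). Socs1, the feedback inhibitor of JAK signalling, measured 20.2, 14.4 and 8.92 FPKM with cytarabine and 6.02, 5.01 and 5.64 FPKM in controls, also separate (1.18 ± 0.27 SE, adjusted p = 0.166 from limma). The kinase genes Jak1 and Jak2 had 0.26 (adjusted p = 0.137) and 0.30 (adjusted p = 0.182), and Rfxap, a subunit of the complex that recruits NLRC5, had -0.20.

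The interferon-inducible GTPases, which act against intracellular pathogens, had a larger median difference than the members. All 14 tested had a higher mean with cytarabine, beside 49.7% of all genes. Of the 14, 10 were at an unadjusted p under 0.05 and 10 without overlap, beside 7.6% and 10.9% of all genes higher. The median log2 fold change was 1.00, or 1.61 with little colon RNA and 0.77 with much. Over all settings the median ranged from 0.66, without cytarabine 1, to 2.02, with the neutrophil score as a covariate, and none passed after adjustment with all 6 libraries and no covariate. Gbp4 measured 62.3, 46.3 and 36.6 FPKM with cytarabine and 19.6, 25.7 and 25.6 FPKM in controls (0.98 ± 0.21 SE, adjusted p = 0.153 from limma). Igtp measured 38.0, 25.1 and 12.2 FPKM with cytarabine and 9.78, 7.40 and 9.05 FPKM in controls (1.30 ± 0.39 SE, adjusted p = 0.206 from limma). In both, cytarabine 1 was the highest library, as it was for the members. Irgm2 had 1.01 and Gbp3 had 0.68. The type I interferon genes were less separated. Of 18 tested, 16 had a higher mean, with a median of 0.29 (also 0.29 with little colon RNA, and 0.37 with much). Only 1, Ifih1, a cytosolic RNA sensor, was at an unadjusted p under 0.05 (log2 fold change 0.52, adjusted p = 0.166), beside 17.4% of all genes in either direction. For the MHC class II genes, which mark professional antigen-presenting cells, 6 of 7 tested had a higher mean. At an unadjusted p under 0.05 there were 0, beside 17.4% of all genes in either direction. The median of the class II genes was 0.53, or -0.34 with the neutrophil score as a covariate. Their direction turned between the sides, with 2 of 7 above 0 and a median of -0.19 with little colon RNA, and 7 of 7 and 0.69 with much.

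**Figure D4:**
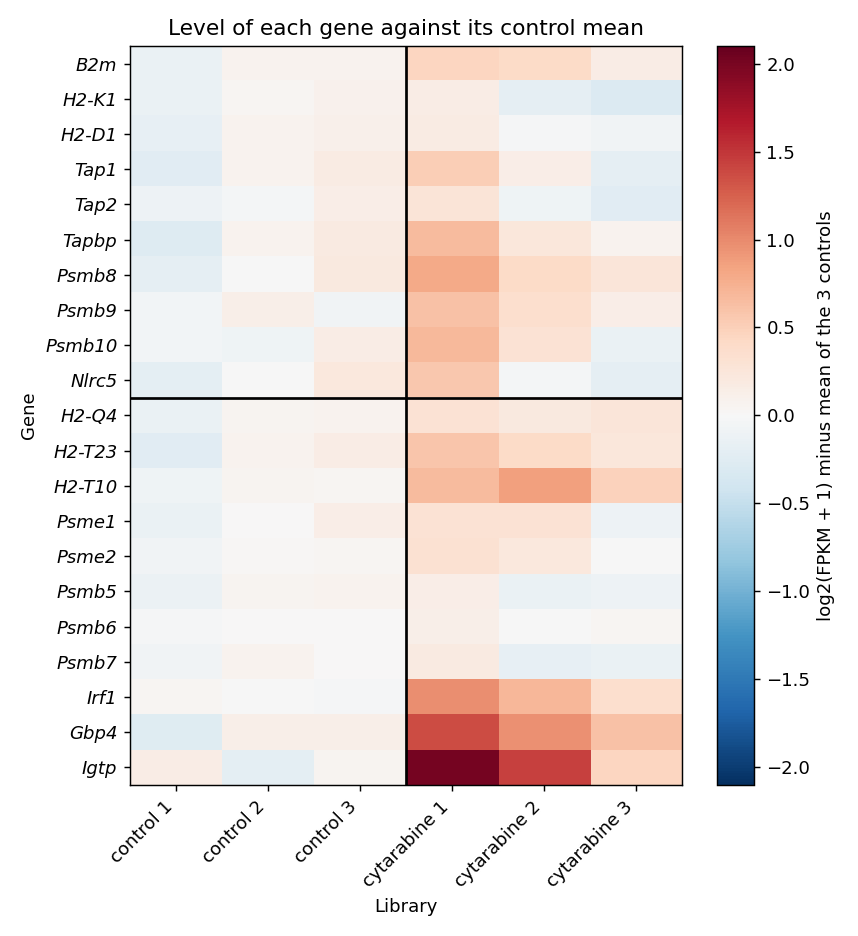
log2(FPKM + 1) of each gene minus its mean in the 3 controls (colour, red higher and blue lower, scale from -2.1 to 2.1), with libraries on the x axis and the 10 members above the black line, other class I, proteasome and interferon genes below it. The values plotted run from -0.28 to 2.01, the cytarabine 1 column is red for all 10 members, and the cytarabine 3 column is below the control mean for 6 of the 10.

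The mean z score of the 10 members was 1.52, 0.137 and -0.64 in cytarabine 1 to 3 and -1.02, -0.192 and 0.195 in control 1 to 3, so the shared pattern was a high cytarabine 1 and a low control 1 more than a separation of the groups. The 5 tested genes most like this pattern, by Pearson r over the 6 libraries, were Rad54l2 (0.988), Adora2a (0.987), 1110038F14Rik (0.983), Ubr7 (0.981) and Scarb1 (0.979). They were selected for this likeness among all tested genes, and the libraries share their differences in colon, heart and neutrophil RNA.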

How the data were processed

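RNA of GFP+ CD49b+ marrow cells was sequenced for 3 mice given cytarabine and 3 controls, 1 library per mouse. Reads of 75 bases were mapped to mm10, and the submitters' processing notes name TopHat2 2.0.13, Bowtie2 2.2.3, SAMtools 0.1.19 and Cufflinks 2.2.1. The authors deposited FPKM values for 23284 genes per library, which are scaled to transcript length and library total. The gene annotation and the Cufflinks options are not given in the sources used here.

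From the deposited FPKM, log2(FPKM + 1) was compared between the groups by limma 3.58.1 under R 4.3.3 (eBayes with trend, two-sided tests with Benjamini-Hochberg adjustment) where the mean of a gene reached 1 FPKM, over all 6 libraries and without covariates. Fold changes on this scale understate low genes. The step was run on simulated data with independent noise and planted changes larger than those of any member. That run therefore says nothing about changes as small as the members'. Shares of subunit pairs were compared with exact permutation tests. Differences within the colon sides are differences of mean log2(FPKM + 1), without a test. Read totals were inferred from low values of 3456 genes with 1 transcript, assuming fragments of 200 bases, and 55.7% to 59.1% of those values came within 0.03 of whole reads, so the totals are approximate. A count test was not run. Marker scores were the mean log2(FPKM + 1) of a list. Gene positions are from GENCODE M21 and promoters from RefSeq GRCm38.p6. Python 3.11.15, pandas 2.3.3 and matplotlib 3.10.9 were used.

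The 10 genes and all lists were chosen with earlier results of these data known. Named genes are the 10 members, up to 4 per list and direction with the smallest p, and the 5 genes most like the members' mean pattern. Psmb5, Psmb6, Psmb7, Psme1, Psme2, Pomp, Erap1, Tapbpl, Ifng and the marker genes were named for their role where this rule did not reach them. Same-numbered libraries are different mice. Alternatives were a pseudocount of 0.1, other filters on low values, 3 other scalings, 2 other eBayes settings, the replicate number as a block, colon, heart and neutrophil scores as covariates, and leaving out each library. The colon division as a term was added after the data were seen. One listed gene is counted in its lists and not reported singly here.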

Additional observations from a re-analysis of the deposited data

How the results depend on the processing

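The 10 members were tested under every setting, and their median log2 fold change of 0.22 was above 0 in all settings except the heart score as a covariate (-0.014). It was 0.48 with the colon score and 0.77 with the neutrophil score, whose values did not overlap between the groups. The number of the 10 members at an unadjusted p under 0.05 was 3 as reported. It was 7 with the colon score, 9 with the neutrophil score and 2 with the heart score, beside 15.4%, 12.6% and 30.2% of all genes. With no filter on low values it was 2, beside 12.9%. With the colon division as a term, which was chosen after the data were seen, it was 5, beside 25.3%. Over all genes, the number with an adjusted p under 0.05 in limma, 0 as reported with 2038 at an unadjusted p under 0.05, was 1 with a pseudocount of 0.1, 2 with eBayes without trend, 1 with a robust trend, 1 with the heart score and 379 with the colon division, and 3534 genes had an unadjusted p under 0.05 with the heart score. With the colon division, 2 members passed after adjustment, Psmb8 (0.61) and Tapbp (0.47), as did H2-T23 (0.51) and Gbp4 (1.14). With the replicate number as a block, 0 members and 994 genes had an unadjusted p under 0.05. The difference of 8.97 points in the Psmb8 share cannot change with this block. An exact test flipping the signs of the same-numbered differences gave p = 0.25 for it. For replicate numbers 1, 2 and 3, r between the deviations of the treated and the control library was -0.71, -0.25 and -0.59. Each such pair lay on opposite sides of the colon division, so r cannot decide whether its mice shared a day or batch. Signs turned for H2-K1 (0.11 with the colon score, 0.34 with the neutrophil score), Tap2 (0.18, 0.45, and 0.0737 with the colon division), H2-M3 (0.0195 and 0.22), Psmb5 (0.13, 0.28, 0.0409 with the colon division and 0.00543 with quantile normalization) and Psmb7 (0.11, 0.33, and 0.0355 with the colon division). Psmg1 (0.14) and Psmg3 (0.0748) turned with the neutrophil score. H2-D1 (-0.0821), Tap1 (-0.0831), Nlrc5 (-0.13), Erap1 (-0.0691), Psme1 (-0.0021), 1110038F14Rik (-0.0038) and Scarb1 (-0.0812) turned with the heart score. Leaving out 1 library gave 0 to 4 members and 1176 to 4111 genes at an unadjusted p under 0.05, 0 to 6 genes after adjustment, and a members' median of 0.03 to 0.37. The ranges included 0 for Erap1 (-0.0844 to 0.12), H2-D1 (-0.0633 to 0.0823), Nlrc5 (-0.11 to 0.27), Psmb5 (-0.13 to 0.0166), Psmb7 (-0.16 to 0.0258), Rad54l2 (-0.0018 to 0.14), Scarb1 (-0.0537 to 0.21), Tap1 (-0.0214 to 0.33) and Tap2 (-0.17 to 0.0845). The cause of these changes was not tested. Other scalings moved the median of all genes to -0.0589 at most. With 3 mice a group, the exact permutation test of a share could not go below 0.1.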
